A study of Mus musculus with 8 samples.

Results

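The transcripts of 9 surface antigens used to enrich mouse spermatogonia were followed across 8 RNA libraries: Thy1, Itga6, Itgb1, Cdh1, Epcam, Cd9, Mcam, Cd24a and Gpr125. They were picked by gene symbol, and their deposited read counts were taken from every library. Each of these 9 symbols had a single entry. The 9 members stand against 23343 symbols in all, and all 9 passed the filter on low counts that kept 14907 genes.

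Spermatogonia are the mitotic germ cells at the base of the seminiferous tubule, and they include the stem cells from which sperm derive. Stem cell activity in the testis is usually enriched by sorting with antibodies to surface proteins, among them THY1, the alpha-6 and beta-1 integrins, E-cadherin, EPCAM, CD9, MCAM and GPR125, while KIT appears as spermatogonia begin to differentiate. Most of these antigens are adhesion proteins that hold cells to the basement membrane or to each other, and many are also made by somatic cells of the testis. Polycomb repressive complex 1 (PRC1) places ubiquitin on histone H2A in chromatin, and it helps to keep developmental genes silent.

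The libraries came from spermatogonia of C57BL/6 testes at postnatal day 7. They form 4 groups of 2 libraries: cKit+ cells labelled PRC1dKO (cKit dKO), cKit+ cells labelled PRC1ctrl (cKit control), Thy1+ cells labelled PRC1dKO (Thy1 dKO) and Thy1+ cells labelled PRC1ctrl (Thy1 control). The labels spell out neither the deleted genes, the control genotype nor what drives the deletion, and they leave out whether the 2 libraries of a group are separate animals. P-values measure only the spread between these samples, which may be technical. The submitters' identification numbers of the cKit libraries and of the Thy1 libraries lie in separate ranges, so any difference in handling that follows them cannot be told apart from the cell population.

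Library totals ran from 6763908 to 10976869 counts. Kit, the receptor that marks the cKit+ sort, stood at 1035 ± 32.7 CPM (counts per megaread of the TMM-scaled library, SD, n = 2) in cKit dKO, 994 ± 78.5 CPM in cKit control, 296 ± 20.9 CPM in Thy1 dKO and 309 ± 11.3 CPM in Thy1 control. Rnf2 and Ring1, which encode the ubiquitin ligases of PRC1, did not pass the test between dKO and control in either population (adjusted p of edgeR from 0.30 to 0.91). As the labels name no deleted gene or exon, these levels check no label. None of 22 core germ cell genes was at 0 in both libraries of a group, and their summed level was 754 to 1077 CPM in cKit dKO, 2576 to 3229 CPM in cKit control, 2862 to 3228 CPM in Thy1 dKO and 3699 to 3968 CPM in Thy1 control. Markers of Leydig cells and of peritubular and stromal cells were also abundant, as given beside the results below.

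Of the 9 members, 5 had a promoter in the RefSeq promoter table (GRCm38.p6, 250 bases before to 50 after the start): Itgb1, Epcam, Cd9, Mcam and Gpr125 (listed there as Adgra3). The promoters of Mcam, Epcam and Cd9 are shown because these 3 genes fell together in cKit dKO. Capitals mark the GC box, GGGCGG or its reverse complement CCGCCC, the motif bound by the Sp family of transcription factors, and no 2 of the marked motifs overlap.
Mcam, chr9:44134408-44134707, plus strand: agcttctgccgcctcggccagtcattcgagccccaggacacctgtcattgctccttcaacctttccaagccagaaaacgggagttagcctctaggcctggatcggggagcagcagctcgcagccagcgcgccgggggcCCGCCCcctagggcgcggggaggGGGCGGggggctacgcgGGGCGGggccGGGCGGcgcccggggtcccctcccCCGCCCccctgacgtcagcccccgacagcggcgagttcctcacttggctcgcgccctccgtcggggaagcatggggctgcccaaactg
Epcam, chr17:87635729-87636028, plus strand: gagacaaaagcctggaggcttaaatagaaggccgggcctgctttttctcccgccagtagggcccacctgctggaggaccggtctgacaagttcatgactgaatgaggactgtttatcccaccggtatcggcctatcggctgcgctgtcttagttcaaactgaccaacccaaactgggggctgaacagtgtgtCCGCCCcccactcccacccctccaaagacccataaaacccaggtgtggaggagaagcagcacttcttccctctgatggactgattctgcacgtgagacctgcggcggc
Cd9, chr6:125494711-125495010, minus strand: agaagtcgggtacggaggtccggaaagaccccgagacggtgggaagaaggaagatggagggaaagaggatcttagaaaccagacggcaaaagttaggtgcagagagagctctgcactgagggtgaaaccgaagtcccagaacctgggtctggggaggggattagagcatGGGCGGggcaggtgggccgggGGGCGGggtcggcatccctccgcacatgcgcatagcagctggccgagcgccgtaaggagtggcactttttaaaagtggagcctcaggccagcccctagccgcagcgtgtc
The Mcam window held 5 GC boxes, that of Cd9 held 2 and that of Epcam held 1, against at least 1 in 35.66% of 32851 promoters of the same length when both strands are read. Neither a TATA box (TATAAA, in 13.62% of promoters) nor a CCAAT box (CCAAT, in 37.41%) was found on either strand of the 3 windows. The windows held 29 CpG in Mcam, 18 in Cd9 and 11 in Epcam, where the median promoter held 7. The promoters of Itgb1 and Gpr125, which did not pass the test in cKit dKO, each held 1 GC box too, with 27 and 34 CpG.

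Cd24a and Itgb1 were the most abundant of the 9 transcripts in every group on the scale of RPKM, the authors' reads per kilobase of transcript and megaread, which allows levels of different genes to be compared. In cKit dKO the mean RPKM ran from Cd24a (134) and Itgb1 (24.1) through Gpr125 (5.02), Epcam (3.25), Mcam (2.68), Cd9 (1.75), Itga6 (1.07) and Cdh1 (0.40) down to Thy1 (0.095). In cKit control the same scale gave 98.3 for Cd24a, 26.2 for Itgb1, 11.2 for Epcam, 10.5 for Mcam, 6.65 for Gpr125, 4.16 for Cd9, 2.53 for Itga6, 0.50 for Cdh1 and 0.15 for Thy1. Mcam and Epcam thus stood above Gpr125 in cKit control and below it in cKit dKO.

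In Thy1 dKO the mean RPKM was 46.1 for Cd24a, 25.5 for Itgb1, 9.46 for Mcam, 9.44 for Epcam, 5.87 for Cd9, 5.75 for Gpr125, 3.15 for Itga6, 2.32 for Thy1 and 2.07 for Cdh1. In Thy1 control it was 32.1 for Cd24a, 24.8 for Itgb1, 16.5 for Mcam, 6.69 for Epcam, 5.87 for Cd9, 5.17 for Gpr125, 3.65 for Thy1, 2.70 for Itga6 and 0.87 for Cdh1. Cd24a lay above 99.7% of the genes tested in cKit dKO and above 97.6% in Thy1 control, so even its lowest group level was high. Among neighbours in these orders, libraries overlapped for Epcam and Mcam in cKit dKO, cKit control and Thy1 dKO, for Cd9 and Gpr125 in Thy1 dKO, for Thy1 and Cdh1 in Thy1 dKO, and for Epcam and Cd9 and for Thy1 and Itga6 in Thy1 control. The other neighbours were separate.

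**Figure D1:**
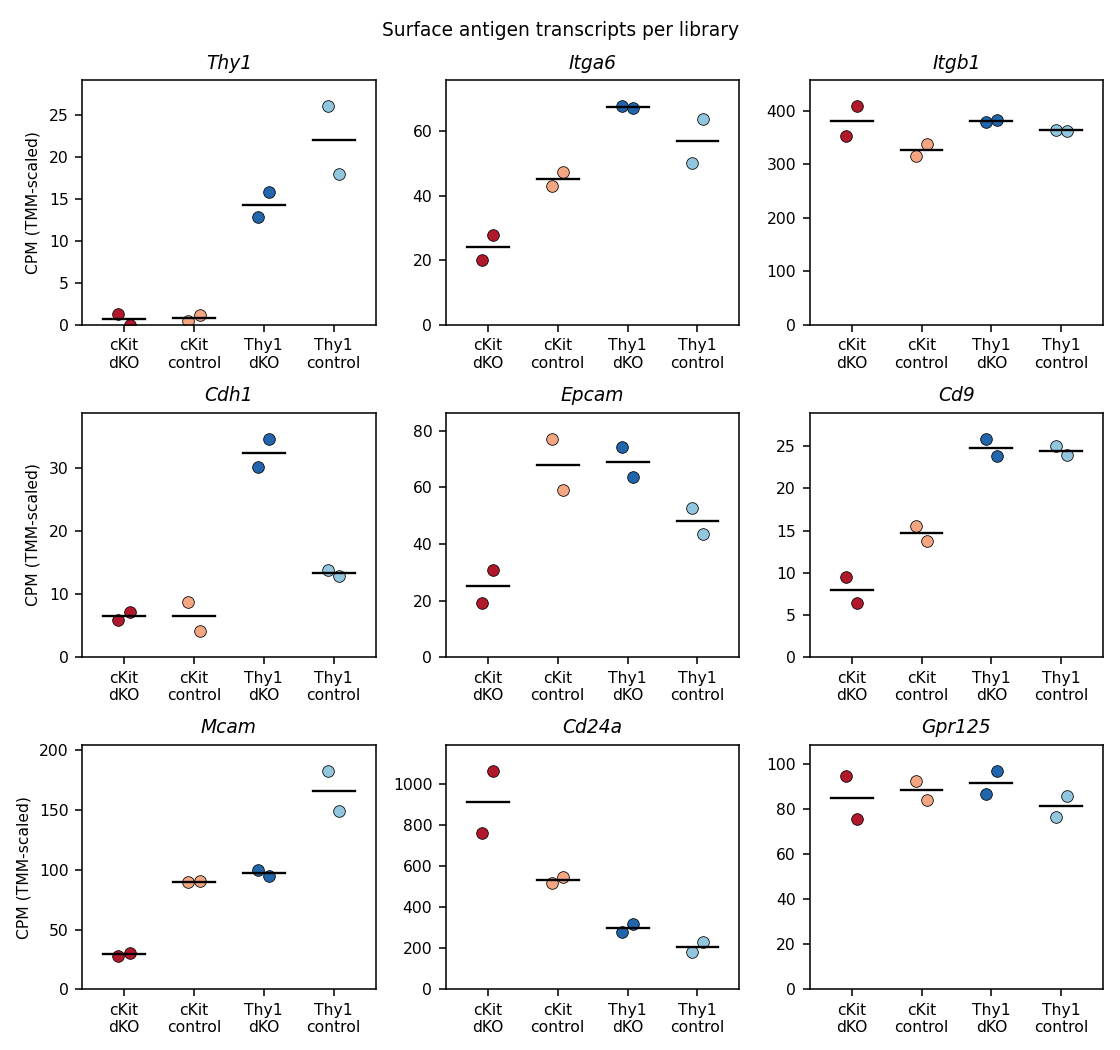
Level of each of the 9 surface antigen transcripts (CPM after TMM scaling, vertical axis from 0) in the 8 libraries. Points are libraries, bars are group means (n = 2). Mcam, Epcam, Cd9 and Itga6 are lowest in cKit dKO, Cd24a is highest there, and Itgb1 and Gpr125 are nearly level across the 4 groups.

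Thy1 encodes a small GPI-anchored glycoprotein of the immunoglobulin superfamily and is the sort marker itself (mm10 chromosome 9, 44043384 to 44048579). It had 8 and 0 reads in cKit dKO, 5 and 9 reads in cKit control, 114 and 116 reads in Thy1 dKO, and 198 and 153 reads in Thy1 control. Both cKit groups lay below both Thy1 groups without overlap, as the sort selects for. Pooled over the libraries of a group, this was 0.634 CPM in cKit dKO (exact Poisson 95% interval 0.274 to 1.25), 0.722 CPM in cKit control (0.395 to 1.21), 14.2 CPM in Thy1 dKO (12.4 to 16.1) and 21.8 CPM in Thy1 control (19.6 to 24.2), intervals that cover counting error only. Because the cells were chosen by this antigen, the cKit to Thy1 difference is a description of the sort: 22.0-fold lower in cKit dKO than in Thy1 dKO, and 29.1-fold lower in cKit control than in Thy1 control. Single libraries decide the size of both: on the log2 scale the dKO value of -4.46 was -3.40 without cKit dKO replicate 2 and -9.86 without replicate 1, which leaves only the library with 0 reads and gives no usable fold. The control value of -4.86 was -4.24 without cKit control replicate 1 and -5.62 without replicate 2. Both Thy1 groups were sorted by this antigen, so dKO and control are compared there among cells already selected for it. Between dKO and control its transcript differed by -0.62 ± 0.42 on the log2 scale in Thy1 cells (SE; edgeR adjusted p = 0.56) and by -0.21 ± 0.87 in cKit cells (adjusted p = 0.88), and at these counts a change in cKit cells was not detectable (95% interval -2.07 to 1.64). Without cKit dKO replicate 1, the library with 8 reads, the value was -5.64, and without replicate 2 it was 0.82.

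Itga6 and Itgb1 encode the integrin subunits alpha-6 and beta-1, which pair into a laminin receptor that anchors cells to the basement membrane. Itga6 (chromosome 2, 71786939 to 71858427) stood at 20.2 and 27.8 CPM in cKit dKO, against 42.9 and 47.2 CPM in cKit control. It fell 1.88-fold in cKit dKO, with no overlap of libraries (log2 fold change -0.91 ± 0.18, edgeR adjusted p = 0.00185). In Thy1 cells it had 67.6 and 67.0 CPM in dKO against 50.2 and 63.6 CPM in control, a difference of 0.24 ± 0.17 in log2 that did not pass the test (adjusted p = 0.58).

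Itgb1 (chromosome 8, 128685654 to 128733579) had 354 and 408 CPM in cKit dKO, 316 and 337 CPM in cKit control, 379 and 383 CPM in Thy1 dKO, and 365 and 363 CPM in Thy1 control. All 8 libraries lay within 316 to 408 CPM. Its dKO effect was 0.22 ± 0.11 in cKit cells (95% interval -0.0037 to 0.45; edgeR adjusted p = 0.13) and 0.07 ± 0.11 in Thy1 cells (-0.16 to 0.29; adjusted p = 0.84), so the intervals hold no fall of the size seen for Itga6. Without cKit dKO replicate 1 the cKit value was 0.37 and passed (adjusted p = 0.0299), while on the authors' RPKM it was -0.12 (limma adjusted p = 0.51). In cKit cells the 95% interval of Itga6 (-1.30 to -0.52) lay below that of Itgb1, and the difference between the 2 genes was not tested.

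Cdh1 and Epcam encode E-cadherin, the calcium-dependent adhesion protein of epithelia and undifferentiated spermatogonia, and EPCAM, a homophilic epithelial adhesion molecule. Cdh1 (chromosome 8, 106603368 to 106670246) was low in cKit cells, at 5.92 and 7.21 CPM in dKO and 8.83 and 4.21 CPM in control, with an effect of -0.02 ± 0.33 (edgeR adjusted p = 0.97). In Thy1 cells it had 30.2 and 34.7 CPM in dKO against 13.8 and 12.9 CPM in control, 2.43-fold apart with no overlap. That difference, 1.28 ± 0.29 on the log2 scale, had an edgeR adjusted p of 0.0555 and did not pass. It passed in 8 of 17 other settings, among them DESeq2 (adjusted p = 0.0136), the fit of the 4 Thy1 libraries alone (0.00177), and each fit without 1 cKit library (0.0197 to 0.0315).

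Epcam (chromosome 17, 87635979 to 87651127) had 19.2 and 30.9 CPM in cKit dKO against 77.3 and 59.0 CPM in cKit control, with no overlap. It fell 2.72-fold (log2 -1.44 ± 0.21, edgeR adjusted p = 0.000161). In Thy1 cells the order was the opposite, with 74.4 and 63.8 CPM in dKO and 52.7 and 43.4 CPM in control, but the log2 difference of 0.53 ± 0.20 did not pass (adjusted p = 0.24). By group mean, Epcam was highest in Thy1 dKO and cKit control, whose libraries overlapped, then in Thy1 control, and lowest in cKit dKO.

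Cd9 encodes a tetraspanin, a membrane organiser that associates with integrins and is best known for its need on the egg at fertilization (chromosome 6, 125460266 to 125494755). It had 9.45 and 6.43 CPM in cKit dKO against 15.6 and 13.8 CPM in cKit control, from 59 and 41 reads against 180 and 108 reads. It fell 1.85-fold (log2 -0.89 ± 0.25, edgeR adjusted p = 0.0145), but the call was lost without cKit dKO replicate 2 (-0.61, adjusted p = 0.113), without cKit control replicate 1 (-0.80, 0.0926) and in a fit of the 4 cKit libraries alone (-0.89, 0.0753). In Thy1 cells it stood at 25.9 and 23.8 CPM in dKO and 25.0 and 23.9 CPM in control, a difference of 0.02 ± 0.22 (adjusted p = 0.98). The RefSeq table also lists a Cd9 pseudogene, and reads from such copies could have been counted here.

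Mcam encodes the melanoma cell adhesion molecule CD146, an immunoglobulin-type adhesion protein of endothelium, pericytes and undifferentiated spermatogonia (chromosome 9, 44134658 to 44142726). It stood at 28.0 and 30.4 CPM in cKit dKO against 89.4 and 90.7 CPM in cKit control, and at 99.9 and 94.6 CPM in Thy1 dKO against 183 and 149 CPM in Thy1 control. The 4 groups did not overlap anywhere. Mcam fell 3.08-fold in cKit dKO (log2 -1.62 ± 0.14, edgeR adjusted p = 4.14e-06), and kept its call in all 17 other settings. It fell 1.70-fold in Thy1 dKO (-0.77 ± 0.13, adjusted p = 0.0197). That second call was lost without Thy1 dKO replicate 1 (-0.81, adjusted p = 0.193), without Thy1 dKO replicate 2 (-0.73, 0.336), without Thy1 control replicate 1 (-0.62, 0.226), with 1 entry per symbol (-0.77, 0.0863) and with limma on RPKM (-0.73, 0.124, and -0.78, 0.155 with a pseudocount of 0.1).

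Cd24a encodes the heat-stable antigen, a short, heavily glycosylated GPI-anchored protein found on many immature cells (chromosome 10, 43579169 to 43584265). It had 759 and 1062 CPM in cKit dKO, 516 and 546 CPM in cKit control, 278 and 318 CPM in Thy1 dKO, and 182 and 229 CPM in Thy1 control. No 2 groups overlapped. It rose 1.71-fold in cKit dKO (log2 0.78 ± 0.15, edgeR adjusted p = 0.00122), the reverse of the 4 members that fell there, but on the authors' RPKM the same comparison gave 0.41 and did not pass (limma adjusted p = 0.10). In Thy1 dKO the log2 difference was 0.53 ± 0.15 with an adjusted p of 0.108, and it passed in 6 of 17 other settings, DESeq2 among them (0.0342). Processed copies of Cd24a elsewhere in the genome could share its reads, so its absolute level is uncertain.

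Gpr125 encodes an orphan adhesion G protein-coupled receptor, now named Adgra3, first used to mark spermatogonial progenitors in the mouse testis (chromosome 5, 49959951 to 50058996). It had 94.5 and 75.6 CPM in cKit dKO, 92.4 and 84.1 CPM in cKit control, 86.4 and 96.8 CPM in Thy1 dKO, and 76.5 and 85.8 CPM in Thy1 control. Ordered by group mean (Thy1 dKO, cKit control, cKit dKO, Thy1 control), each group overlapped the next. Thy1 dKO and Thy1 control, the ends of that order, did not overlap. The dKO effect was -0.06 ± 0.14 in cKit cells (95% interval -0.36 to 0.24; edgeR adjusted p = 0.81) and 0.17 ± 0.14 in Thy1 cells (-0.13 to 0.47; adjusted p = 0.64). Neither effect passed in any other setting tried, where the lowest adjusted p was 0.0726 in cKit cells and 0.483 in Thy1 cells.

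**Figure D2:**
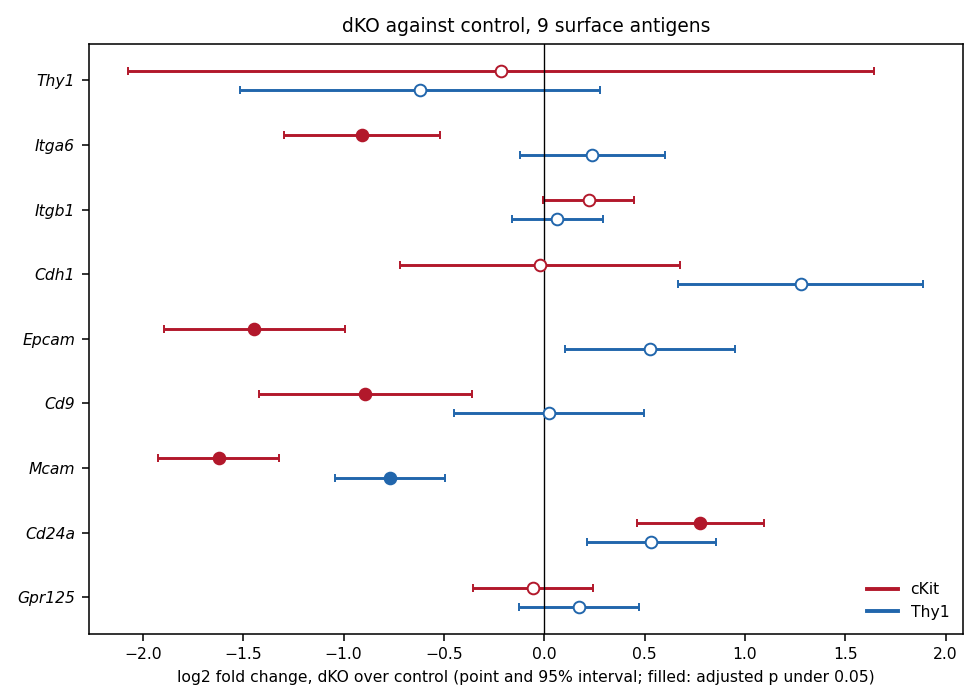
Log2 fold change of dKO over control for each antigen in cKit cells (red) and in Thy1 cells (blue), with 95% intervals from edgeR's quasi-likelihood fit. Filled points passed the adjusted p of 0.05. In cKit cells Mcam, Epcam, Itga6 and Cd9 lie below 0 and Cd24a above it, and in Thy1 cells Mcam alone passed.

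The first comparison asked which antigens differed between dKO and control in cKit+ cells. Transcripts of 4 antigens fell there (Mcam, Epcam, Itga6 and Cd9), Cd24a rose, and Itgb1, Gpr125, Cdh1 and Thy1 did not pass. These 5 of 9 members compare with 28.6% of all 14907 genes tested. The 4 that fell stand beside 15.4% of genes called lower, and the 1 that rose beside 13.2% called higher. The median log2 fold change was -0.21 over the members and 0.03 over all genes. Libraries of dKO and control did not overlap for 6 of 9 members, 2 higher and 4 lower, against 60.7% of all genes (30.8% higher and 30% lower), so the count of separate members is near the background.

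Marker levels of several cell types moved in the same comparison. Of the 22 core germ cell genes 19 fell in cKit dKO, with a median log2 fold change of -1.66, and Ddx4, the germ cell RNA helicase, changed by -1.81 ± 0.17 (edgeR adjusted p = 5.17e-06). Over the Leydig cell list the summed level was 17730 to 20394 CPM in cKit dKO against 12623 to 15378 CPM in cKit control, and 8 of 13 markers rose and 1 fell. Peritubular and stromal markers summed to 6043 to 7440 CPM in cKit dKO against 3745 to 3762 CPM in cKit control (14 of 20 rose), and Sertoli cell markers to 2253 to 2287 CPM in cKit dKO against 1642 to 1728 CPM in cKit control (10 of 24 tested rose). Endothelial markers summed to 472 to 489 CPM in cKit dKO against 238 to 245 CPM in cKit control, with 6 of 14 tested rising. Macrophage markers, of which 0 of 17 passed, ran from 204 to 688 CPM in cKit dKO and from 243 to 522 CPM in cKit control, and mast cell markers from 248 to 303 CPM in cKit dKO and from 121 to 206 CPM in cKit control, with 2 of 8 tested rising. T cell markers ran from 14.1 to 19.4 CPM in cKit dKO and from 11.1 to 16.7 CPM in cKit control, with 1 of 6 tested falling. Erythroid markers summed to at most 8.16 CPM in any library. At 0 in both libraries were the T cell genes Cd3d and Cd8a in each cKit group, with Cd2 and Trat1 in cKit dKO and Cd3g and Cd8b1 in cKit control, the mast cell gene Fcer1a in each cKit group, with Mcpt1 in cKit control, and the macrophage gene Cd163 in cKit control. No germ, Leydig, stromal, Sertoli or endothelial marker was at 0 in both libraries of any group. With limma on RPKM fewer somatic markers passed: 1 Leydig marker higher and 1 lower, 5 Sertoli markers higher and 1 lower, 8 stromal and 2 endothelial markers higher, against 20 of 22 germ cell genes lower. Their part in the changes of the antigens was not tested, and in bulk RNA fewer cells of a type cannot be told apart from less RNA per cell.

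**Figure D3:**
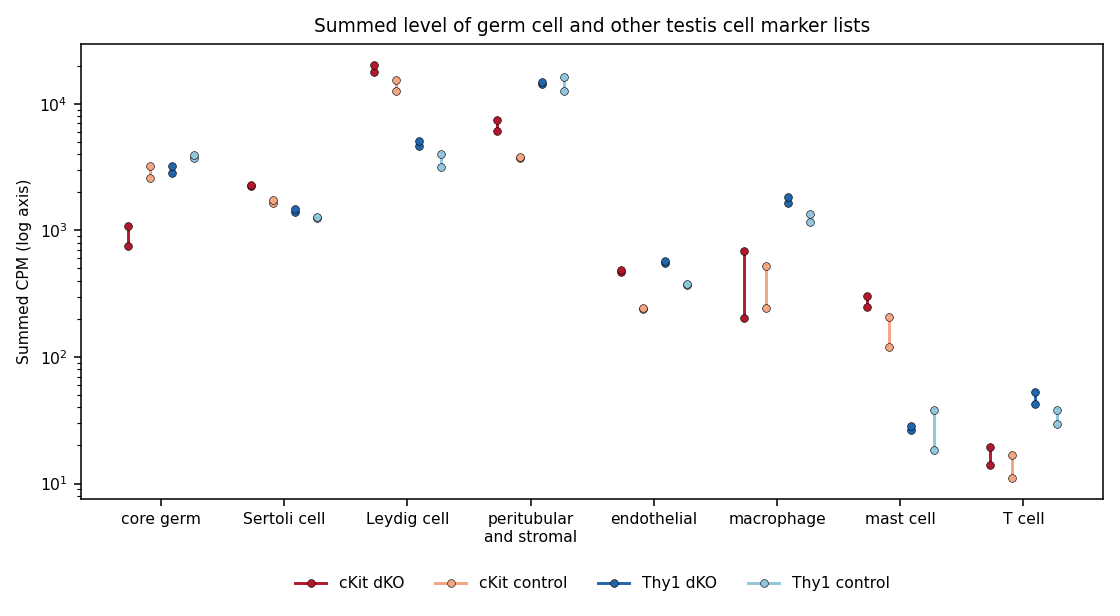
Summed level (CPM, log axis) of core germ cell genes and of 7 lists of somatic markers in the 4 groups. Points are the 2 libraries of a group, joined by a line. Core germ cell genes are lowest in cKit dKO, at 754 to 1077 CPM, and the Leydig list is highest there, at 17730 to 20394 CPM.

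Relatives of the antigens were read from lists of their families, and no list was tested as a set. Their counts in cKit dKO stand beside 28.6% of all genes called (13.2% higher and 15.4% lower), and several lists lie near that share. Among 23 integrin subunits tested, Itga6 and the muscle laminin receptor subunit Itga7 fell in cKit dKO, Itga7 with a log2 fold change of -2.34 ± 0.62, while Itga4, Itga9 and the leukocyte subunit Itgb2 rose. Itga4, a fibronectin and VCAM1 receptor subunit, had 66.3 ± 8.34 CPM in cKit dKO and 31.5 ± 2.64 CPM in cKit control (SD, n = 2 each), and its partner ligand Vcam1 had 2175 ± 56.7 CPM in cKit dKO and 1041 ± 269 CPM in cKit control. Itga9 changed by 1.04 ± 0.14. The median over the integrin list was 0.34, but -0.00086 with limma on RPKM (1 higher, 1 lower), a scale on which the median of all genes itself was -0.16.

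Of 19 cadherins and catenins tested, N-cadherin (Cdh2) and delta-2 catenin (Ctnnd2) fell in cKit dKO, and Cdh5, Cdh11, Cdh17 and Jup rose. Cdh2 had 9.05 ± 2.15 CPM in cKit dKO against 31.0 ± 5.19 CPM in cKit control, -1.78 ± 0.27 on the log2 scale (edgeR adjusted p = 0.000199). Cdh5, the cadherin of endothelial junctions, had 345 ± 5.23 CPM in cKit dKO against 171 ± 2.50 CPM in cKit control. Among 11 genes of the Epcam and claudin list, Epcam and Cldn6 fell and the tight junction protein Cldn1 rose (1 higher and 3 lower with limma on RPKM, and 1 and 5 in the cadherin list). Cldn1 had 637 ± 76.2 CPM in cKit dKO and 330.0 ± 53.0 CPM in cKit control.

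Among 29 tetraspanins and Cd9 partners tested, Cd9 was the one that fell in cKit dKO and 8 rose, with limma on RPKM giving 3 higher and 3 lower. Tspan7 changed by 1.30 ± 0.29, Tspan18 by 0.86 ± 0.13, and Cd81, a close relative of Cd9 that is also needed on the egg, by 0.49 ± 0.11 (edgeR adjusted p = 0.0032). Among 28 adhesion molecules of the immunoglobulin family, Mcam, Nrcam, Nfasc and Cadm1 fell and 9 rose, against 6 lower and 2 higher with limma on RPKM. Cadm1, an adhesion protein of spermatogenic cells that binds Sertoli cells, had 38.8 ± 2.91 CPM in cKit dKO and 126 ± 10.8 CPM in cKit control, a log2 fold change of -1.70 ± 0.14, close to that of Mcam.

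Of 38 GPI-anchored surface proteins tested, 9 rose with Cd24a among them and 4 fell in cKit dKO, against 2 and 5 with limma on RPKM. Gfra2, the neurturin receptor, changed by 1.55 ± 0.31, Efna5, an ephrin ligand, by 1.19 ± 0.17, and the complement regulator Cd55 by -1.10 ± 0.27. Among 23 adhesion G protein-coupled receptors, Gpr116, Gpr124 and Lphn3 rose and Gpr64 and Gpr98 fell, against 1 lower with limma on RPKM. Of 20 other receptors of spermatogonia, 4 rose and 3 fell, against 2 lower with limma on RPKM. The transferrin receptor Tfrc had 50.8 ± 13.0 CPM in cKit dKO against 159 ± 12.7 CPM in cKit control (log2 -1.64 ± 0.17, edgeR adjusted p = 8.82e-06). The integrin-associated protein Cd47 changed by 0.67 ± 0.12 and the cytokine receptor chain Il6st by 0.60 ± 0.12.

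The calls on the 4 members that fell in cKit dKO passed with RLE factors, with library totals and with limma on RPKM. The exceptions for Cd9 are given with its values. Over all genes the split of calls depended on the scaling. It was 1965 higher and 2294 lower by TMM, and 1278 and 3007 by library totals. By limma on log2(RPKM + 1) it was 459 and 3990, or 443 and 4042 with a pseudocount of 0.1. Library totals moved the median of all genes in this comparison to -0.10, and limma on log2(RPKM + 1) to -0.16. Both lean toward falls, so they cannot challenge the calls on these 4 members. RLE factors moved the median up, to 0.083.

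The second comparison asked the same of Thy1+ cells. Mcam fell there, and the other 8 members did not pass, so 1 of 9 was called against 0.624% of all genes (0.362% higher and 0.262% lower). The number of genes called over the whole table was 93 and varied widely with the setting, from 3 without either Thy1 dKO library to 870 when the Thy1 libraries were fitted alone. The median log2 fold change was 0.17 over the members and 0.03 over all genes. Libraries of dKO and control did not overlap for 8 of 9 members, 6 higher and 2 lower, beside 51.3% of all genes (28.5% higher and 22.8% lower). The sort marker Thy1 is among the lower ones.

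In the Thy1 libraries 3 of 22 core germ cell genes fell (median -0.31). The summed Leydig markers were 4596 to 5073 CPM in Thy1 dKO and 3138 to 3993 CPM in Thy1 control, and 3 of the 13 rose. The endothelial markers summed to 551 to 570 CPM in Thy1 dKO and 372 to 374 CPM in Thy1 control, the macrophage markers to 1658 to 1822 CPM in Thy1 dKO and 1155 to 1341 CPM in Thy1 control, and the T cell markers to 42.6 to 52.7 CPM in Thy1 dKO and 29.3 to 37.9 CPM in Thy1 control. Sertoli cell markers summed to 1387 to 1462 CPM in Thy1 dKO and 1258 to 1274 CPM in Thy1 control. Peritubular and stromal markers overlapped, at 14185 to 14887 CPM in Thy1 dKO and 12661 to 16216 CPM in Thy1 control, and so did mast cell markers, at 26.5 to 28.6 CPM in Thy1 dKO and 18.3 to 38.3 CPM in Thy1 control. At 0 in both libraries were Cd8b1 and Mcpt1 in each Thy1 group, Fcer1a in Thy1 dKO and Tpsab1 in Thy1 control. In the endothelial list 1 of 14 genes tested rose and 0 fell in Thy1 dKO (median 0.68), and in the stromal list 0 of 20 passed (median -0.20). The part of these cells in the level of the antigens was not tested.

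Few relatives passed in Thy1 cells. Vcam1 had 693 ± 7.13 CPM in Thy1 dKO against 393 ± 2.48 CPM in Thy1 control, and Gpr56, a collagen-binding adhesion receptor, had 34.5 ± 1.82 CPM in Thy1 dKO against 16.3 ± 2.45 CPM in Thy1 control. Cdh5 had 381 ± 4.96 CPM in Thy1 dKO against 266 ± 1.67 CPM in Thy1 control, and the ephrin receptor Epha2 had 30.7 ± 4.35 CPM in Thy1 dKO against 10.5 ± 2.05 CPM in Thy1 control. F11r, the junctional adhesion molecule A, had 23.8 ± 4.15 CPM in Thy1 dKO against 46.6 ± 7.93 CPM in Thy1 control (log2 -0.97 ± 0.19, edgeR adjusted p = 0.0338). In the lists of integrins, tetraspanins, claudins and GPI-anchored proteins edgeR called 0 genes, in a comparison where 2059 of all genes had an unadjusted p under 0.05 and 93 were called. With limma on RPKM, which called 24 genes in all, 0 genes of any family list passed.

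The third question was how the antigens differ between the 2 sorted populations, cKit+ cells and Thy1+ cells. In control libraries Cd24a was 2.58-fold higher in cKit than in Thy1 cells (log2 1.37 ± 0.15, edgeR adjusted p = 9.54e-06), and Mcam was 1.84-fold lower (-0.88 ± 0.13, adjusted p = 0.000143). Cdh1 (-1.0 ± 0.31, adjusted p = 0.0307) and Cd9 (-0.73 ± 0.23, adjusted p = 0.0321) were lower too. Beside the sort marker Thy1, 4 of 8 members thus differed, 1 higher and 3 lower, against 19.7% of all genes (9.46% higher and 10.3% lower). Libraries did not overlap for 8 of all 9 members, 2 higher and 6 lower, beside 59.7% of all genes (29.9% higher and 29.8% lower). Among the lower members is the sort marker Thy1, which the sort itself sets apart. The Cdh1 call was lost in 8 of 17 other settings and the Cd9 call in 9, including each fit without 1 Thy1 library. Without cKit control replicate 1 the Cdh1 value was -1.66, and without replicate 2 it was -0.60 and did not pass.

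Epcam ran the other way from Cdh1 in control, at 77.3 and 59.0 CPM in cKit cells against 52.7 and 43.4 CPM in Thy1 cells. Its log2 difference of 0.51 ± 0.20 did not pass (adjusted p = 0.0896), and it passed in 5 of 17 other settings. Itga6 differed by -0.34 ± 0.17 (adjusted p = 0.19), Itgb1 by -0.16 ± 0.11 (adjusted p = 0.35) and Gpr125 by 0.12 ± 0.14 (adjusted p = 0.61). The 2 populations were thus not shown to differ in these 4 antigens.

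In dKO libraries more of the antigens passed the test, and whether a gap differs from that in control is the last comparison below. Cdh1 was 4.92-fold lower in cKit than in Thy1 cells (log2 -2.30 ± 0.31), Mcam 3.33-fold (-1.73 ± 0.14), Cd9 3.13-fold (-1.65 ± 0.25), Itga6 2.80-fold (-1.49 ± 0.18) and Epcam 2.76-fold (-1.46 ± 0.21), with edgeR adjusted p from 5.92e-07 to 0.000122. Cd24a was 3.06-fold higher (1.61 ± 0.15, adjusted p = 1.90e-06). Leaving the sort marker aside, 6 of 8 members differed, 1 higher and 5 lower, where 34.8% of all genes did (14.8% higher and 20% lower). Libraries did not overlap for 7 of all 9 members, 1 higher and 6 lower with the sort marker Thy1 among them, beside 67.5% of all genes (29.3% higher and 38.2% lower). Each of the 6 calls held in all 17 other settings. Itgb1 (-0.000019 ± 0.11, 95% interval -0.23 to 0.23) and Gpr125 (-0.11 ± 0.14, -0.41 to 0.19) did not pass. The comparisons in dKO and in control compare separate libraries, but each shares libraries with the dKO comparisons above. All of them take their spread from 1 fit over all 8 libraries, so they are not independent.

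**Figure D4:**
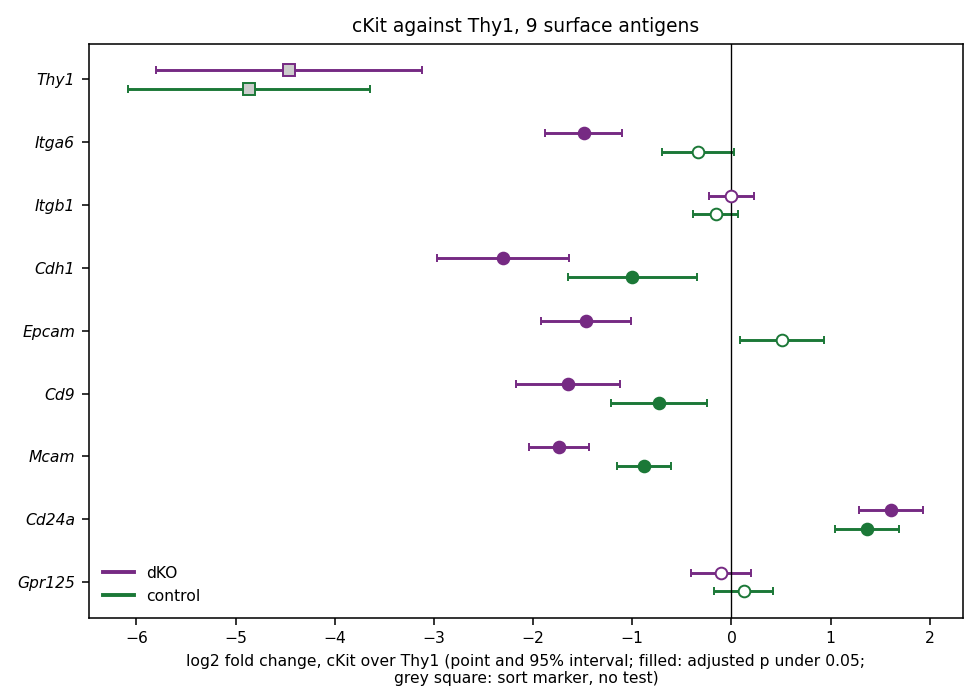
Log2 fold change of cKit over Thy1 cells for each antigen in dKO (purple) and control (green) libraries, with 95% intervals. Filled circles passed the adjusted p of 0.05, and grey squares mark Thy1, the sort marker, whose test result is set aside. In dKO 5 antigens lie below -1 besides Thy1. In control Epcam lies on the other side of 0, and neither Epcam nor Itga6 passes.

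Somatic markers differed between the populations as well. Leydig markers summed to 17730 to 20394 CPM in cKit dKO, 12623 to 15378 CPM in cKit control, 4596 to 5073 CPM in Thy1 dKO and 3138 to 3993 CPM in Thy1 control, with Hsd3b1, a steroid-synthesizing enzyme of Leydig cells, at 7702 ± 498 CPM in cKit control and 1774 ± 188 CPM in Thy1 control. Stromal markers were lower in cKit cells for 19 of 20 genes in control and 15 of 20 in dKO, where 1 was higher, with Col1a2, a type I collagen chain, at 1004 ± 1.60 CPM in cKit control against 3279 ± 670 CPM in Thy1 control. Leydig markers were higher in cKit for 12 of 13 genes in control and 13 of 13 in dKO. Macrophage markers were lower in cKit for 14 of 17 genes in each genotype, and mast cell markers were higher for 7 of 8 in control and 8 of 8 in dKO. Core germ cell genes were lower in cKit for 7 of 22 in control and 18 of 22 in dKO. Their part in the antigen differences was not tested.

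Among relatives, Gfra1 and Ret, the co-receptor and the kinase through which GDNF maintains spermatogonial stem cells, were lower in cKit than in Thy1 cells. Gfra1 had 2.62 ± 0.82 CPM in cKit dKO against 50.4 ± 4.50 CPM in Thy1 dKO, and 1.70 ± 0.42 CPM in cKit control against 35.0 ± 6.58 CPM in Thy1 control. Ret had 5.78 ± 1.15 CPM in cKit dKO against 80.8 ± 1.39 CPM in Thy1 dKO, and 4.28 ± 1.18 CPM in cKit control against 74.2 ± 2.04 CPM in Thy1 control. Integrins of the control libraries were lower in cKit for 9 of 23 genes and higher for Itga9 alone, and Itga8, a subunit found on stromal cells, differed by -3.74 ± 0.49. Alcam, another immunoglobulin-type adhesion molecule, had 22.0 ± 4.91 CPM in cKit dKO against 61.9 ± 3.93 CPM in Thy1 dKO, and Pvrl2, a nectin, was higher in cKit by 1.77 ± 0.20 in control.

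The last comparison tested whether the dKO effect itself differed between the populations, as the effect in cKit minus that in Thy1. It differed for Epcam (-1.97 ± 0.29, edgeR adjusted p = 0.00167), Itga6 (-1.15 ± 0.25, adjusted p = 0.0139) and Mcam (-0.85 ± 0.19, adjusted p = 0.016), which makes 3 of 9 members, all lower, against 5.92% of all genes (1.86% higher and 4.06% lower). Epcam held this call in all 16 other settings. The call of Itga6 was lost without either Thy1 dKO library, Thy1 control replicate 1 or cKit control replicate 2, and with 1 entry per symbol, with adjusted p of 0.0513 to 0.0885. The call of Mcam was lost without either Thy1 dKO library, Thy1 control replicate 2, cKit dKO replicate 1 or cKit control replicate 1, with adjusted p of 0.0503 to 0.102. Cdh1 (-1.30 ± 0.44, adjusted p = 0.096) and Cd9 (-0.92 ± 0.33, adjusted p = 0.12) lay on the same side of 0 but did not pass, and for Cd24a the difference was 0.24 ± 0.21 (adjusted p = 0.56). In the same test 15 of 22 core germ cell genes had a lower effect in cKit cells, 10 of 20 stromal markers a higher one, and Tfrc had a difference of -1.30 ± 0.23.

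The makeup of the 9 transcripts shifted with these changes. Cd24a took 75.2% and 79.4% of the summed RPKM of the 9 in the cKit dKO libraries, 60.3% and 62.5% in cKit control, 40.2% and 43.8% in Thy1 dKO, and 29.4% and 36.2% in Thy1 control. Mcam took 1.74% and 1.43% in cKit dKO, 6.56% and 6.52% in cKit control, 9.08% and 8.18% in Thy1 dKO, and 18.5% and 14.8% in Thy1 control. The 4 groups did not overlap for either gene. The summed RPKM was 142 and 201 in cKit dKO, 165 and 156 in cKit control, 108 and 112 in Thy1 dKO, and 102 and 94.7 in Thy1 control.

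**Figure D5:**
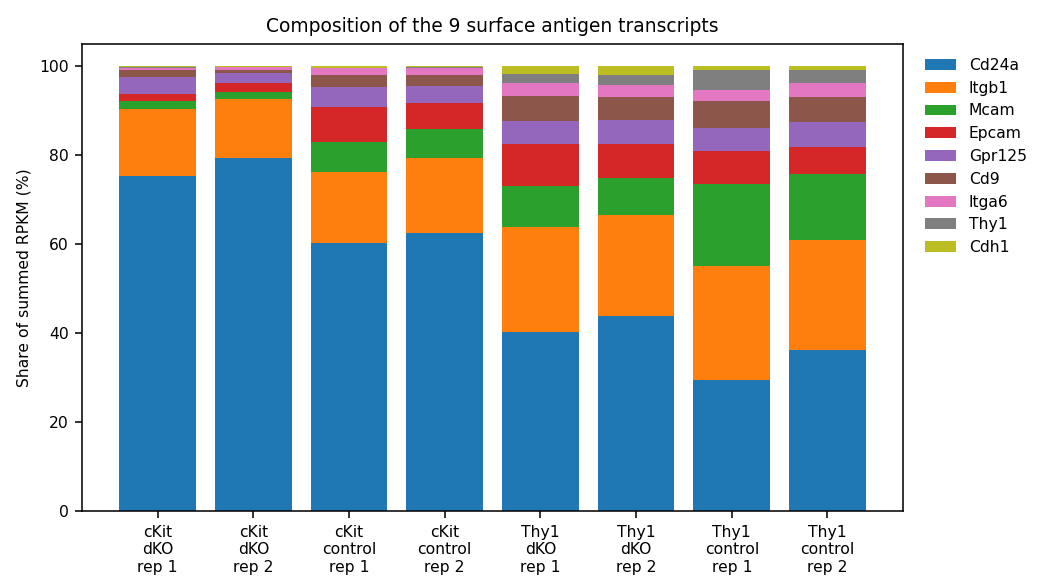
Share of each antigen in the summed RPKM of the 9 transcripts (%, stacked to 100), for each library. Cd24a, the lowest block, grows to 75.2% and 79.4% in cKit dKO against 29.4% and 36.2% in Thy1 control, while Mcam shrinks.

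Profiles over the 8 libraries were compared as the root mean square difference of log2 CPM after centring each gene on its mean. Among the members, Itgb1 and Gpr125 were nearest to each other (0.19), then Itga6 and Cd9 (0.31) and Itga6 and Epcam (0.37), while Thy1 and Cd24a were farthest apart (2.90). Over 10433 candidate genes, the nearest to Mcam were Nxf2 (0.16), Zfp951 and Dock11 (both 0.20), and the nearest to Epcam were Cds1 (0.15), Alg13 and Adarb1 (both 0.18). Itga6 was nearest to Mgat4a (0.12), Sfmbt2 (0.13) and Zfhx3 (0.14), and Cd9 to Pawr (0.10), Mycn (0.14) and 4930550L24Rik (0.15). Cd24a was nearest to AI427809 (0.11), Gja1 (0.13) and Inha (0.13), and Cdh1 to Ddx60, Pcdh1 (both 0.29) and Mn1 (0.32). Itgb1 was nearest to Mapre1 (0.053), Eif3f (0.055) and Wdr26 (0.059), and among the nearest to Gpr125 were Arid4b (0.044) and Gtf3c4 (0.056). The profile of Thy1 had no near match, with Postn and Gpr133 (both 0.46) and Fmod (0.56) the closest. With 0 to 9 reads in each cKit library, counting error adds to the distances of Thy1. These distances describe 8 libraries of 4 groups that share their depth and marker content, and they carry no test.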

How the data were processed

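RNA of sorted spermatogonia was amplified with the NuGEN Ovation system and sequenced from Nextera XT libraries on a HiSeq, per the labels' protocols. STAR 2.4.2a and the mm10 build are named in the submitters' processing notes. How reads were counted, and with which strand rule, is not given in the sources used here, so reads of overlapping antisense genes cannot be told apart. The deposited counts are whole numbers per RefSeq entry, per the file headers. The deposited RPKM (reads per kilobase and megaread) were made by the authors, per the file headers.

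Counts were summed per symbol and tested with edgeR 4.0.16 in R 4.3.3: filterByExpr, TMM scaling, one mean per group over all 8 libraries, glmQLFit and glmQLFTest (two-sided), with Benjamini-Hochberg adjustment over 14907 genes and a threshold of 0.05. More than 1 entry was summed for 2060 symbols, among them Kit, whose entries cover nearly the same stretch. Reads shared by such entries could have been counted more than once. Adjusted p-values are from this test unless another tool is named, and each SE was derived from the log2 fold change and its F statistic. Alternatives were DESeq2 1.42.0, limma 3.58.1 on log2(RPKM + 1) or log2(RPKM + 0.1), RLE factors, library totals, no filter, 1 entry per symbol, the compared libraries alone, a replicate term and each library left out. Values from limma are on the log2(RPKM + pseudocount) scale, which understates changes of low genes, and "limma on RPKM" without a pseudocount means 1. The amplified reads carry no molecular identifiers. The code was tested on simulated data.

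The members and gene lists were chosen with earlier results of these data known. The relatives named were the called genes of a list whose mean log2 CPM was 3 or more and whose groups did not overlap, at most 4 per list and comparison by size. The 2 most abundant genes of each somatic list and the 3 nearest profiles per member were also read. One gene near Gpr125 is not reported here. Cdh17, Cldn6, Cd81, Ddx4, Fcer1a, Itga7, Itgb2, Jup, Lphn3, Nfasc, Nrcam and the T cell, mast cell and macrophage genes at 0 were named after their values were seen, as was Tfrc in the difference of effects. Deviations of same-numbered libraries correlated between groups by -0.041 to 0.053. These values are taken over all genes tested, where noise can hide shared animals or sort days, so pairing is not excluded.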

Additional observations from a re-analysis of the deposited data

Results flagged for a closer look

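The dKO effect of 3 antigens differed between the populations by the test of the difference itself. For Epcam the effect in cKit cells minus that in Thy1 cells was -1.97 on the log2 scale, made of -1.44 in cKit and 0.53 in Thy1, where the Thy1 value did not pass on its own (edgeR adjusted p = 0.24). For Itga6 it was -1.15, made of -0.91 in cKit and 0.24 in Thy1, which did not pass either (edgeR adjusted p = 0.58). For Mcam it was -0.85, made of -1.62 in cKit and -0.77 in Thy1, both below 0. The Mcam call within Thy1 cells was lost in 6 of 17 other settings. On the test of the difference, the calls of Mcam and of Itga6 were each lost in 5 of 16 other settings. In the same test 15 of 22 core germ cell genes had a lower effect in cKit cells, and their part in these differences was not tested.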

How the results depend on the processing

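Over the members, 800 values were computed: 45 as reported and, of the rest, 657 with the same direction and call, 38 that lost the call, 26 that gained it and 34 that changed sign. In cKit dKO the falls of Mcam, Epcam and Itga6 held in all 17 other settings.

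Thy1 dKO genes called were 317 with DESeq2, 563 with no filter, 870 with only the compared libraries, 157 with the replicate block, 9 with 1 entry per symbol, and 24 and 6 with limma on RPKM plus 1 and 0.1. Leaving out 1 library gave 3 (either Thy1 dKO library) to 400, with 8 and 16 without Thy1 control replicates 1 and 2 and 392 and 400 without cKit dKO replicates 1 and 2. Members called were 3, 3, 4, 3, 0, 0 and 0 in that order of settings, and 0 to 3 with 1 library left out. cKit dKO genes were 2386 without cKit control replicate 1, in a range up to 3972, with 4 to 6 members. For cKit against Thy1 in control, genes ranged from 1717 (without Thy1 control replicate 1; 1821 without replicate 2) to 3575 and members from 3 to 6 with 1 library left out, and 3 members were called with 1 entry per symbol and 3 with limma on RPKM plus 0.1. In dKO the genes ranged from 3101 (without Thy1 dKO replicate 1; 3368 without replicate 2) to 5245. For the difference of effects, 1490 genes were called with no filter and 433 with 1 entry per symbol, 219 to 1268 with 1 library left out (378 without Thy1 dKO replicate 2, 297 and 526 without the Thy1 control libraries, 367 without cKit control replicate 1), and members were 5 with limma on RPKM plus 1 and 1 to 3 with 1 library left out. The cause of these shifts was not tested. Member counts of cKit against Thy1 include the sort marker Thy1, which was called in every setting and which the counts of called members in the Results leave aside.

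The values that changed sign had not passed as reported. In cKit dKO, Cdh1 was 0.032 with DESeq2, 0.028 with RLE, 0.0024 with the replicate block and -0.38 to 0.64 with 1 library left out, and Itgb1 was -0.12 with either limma pseudocount. With 1 library left out in cKit dKO, Thy1 ranged from -5.64 to 0.82 and Gpr125 from -0.18 to 0.13, and in Thy1 dKO Cd9 ranged from -0.042 to 0.083. For cKit against Thy1, Itgb1 was 0.076 and 0.079 in control with the limma pseudocounts. In dKO, Itgb1 was 0.046 with DESeq2, 0.047 with RLE, 0.0046 with no filter, 0.081 with only the compared libraries and -0.040 to 0.18 with 1 library left out, and Gpr125 was -0.19 to 0.11. For the difference of effects, Itgb1 was -0.16 and -0.17 and Cd24a -0.10 and -0.11 with the 2 limma pseudocounts, and Thy1 ranged from -4.98 to 1.48 with 1 library left out.

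Pairing by replicate number was not settled, and the replicate block added Cdh1 and Cd24a to the Thy1 dKO calls. The split of calls for the difference of effects was 278 higher and 605 lower by TMM, 172 and 966 by library totals, 426 and 579 by DESeq2, and 35 and 1013 with limma on RPKM plus 1. For cKit against Thy1 it was 2202 and 2988 by TMM and 1666 and 3797 by library totals in dKO, and 1410 and 1529 by TMM and 2504 and 927 with limma on RPKM plus 1 in control, and for Thy1 dKO 54 and 39 by TMM and 10 and 14 with limma on RPKM plus 1. The median of all genes moved to -0.22 for cKit against Thy1 in dKO and -0.16 for the difference by library totals, and to 0.14 for control and -0.19 for the difference with limma on RPKM plus 1. Depth limits Thy1 in cKit cells most, where it had 0 to 9 reads a library, and a lone left-in library of a group is assumed to vary like the other groups.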
